A study of Mus musculus with 6 samples.

Results

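The 6 genes described here serve ketone body use and the transport of small carboxylic acids, and were followed in the hearts of young and old mice. They are Bdh1, Bdh2, Oxct1, Acat1, Slc16a1 and Bsg, and all 6 were found by symbol among the 18005 genes of the deposited tables. They were chosen by their function and by earlier results from these same libraries, in which Bdh1 was among the genes of smallest p between old and young mice. Their differences between the groups are therefore given as a description with no p-value. Heart RNA was sequenced from 3 young and 3 old mice, all of them wild type (WT) and untreated, with each library taken as 1 mouse. Age in months, strain and sex are not in the labels, and neither is the part of the heart that was taken. The labels do not say how the mice were housed or bred, so the spread measured is that between these samples. Libraries held 11295280 to 12514005 counts, and a single count in such a library stands for about 0.0839 CPM, the unit of counts scaled to library size.

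Ketone bodies are made in the liver from fatty acids and circulate as acetoacetate and 3-hydroxybutyrate, which the heart takes up and burns. Slc16a1 encodes the monocarboxylate transporter MCT1, which moves ketone bodies, lactate and pyruvate across the cell membrane together with a proton, and Bsg encodes basigin, the membrane partner that brings it to the cell surface. Inside the mitochondrion, the dehydrogenase encoded by Bdh1 turns 3-hydroxybutyrate into acetoacetate. The transferase encoded by Oxct1 then joins acetoacetate to coenzyme A, the committed step of ketone use, and the thiolase encoded by Acat1 splits the product into acetyl coenzyme A for the citric acid cycle. Bdh2 encodes a cytosolic relative of the Bdh1 enzyme.

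The starts of Bdh1 and Slc16a1 are shown because these are the called members for which a promoter sequence was at hand. Each is the 250 bases before a RefSeq start on the plus strand in the GRCm38.p6 build, an older build than that of the authors' notes (GRCm39). Of the 6 genes, 4 matched the RefSeq promoter table, and Acat1 and Bsg did not. Capitals mark exact matches, on either strand, to any of 7 motifs. Among them were the E-box CACGTG, the D-box TTATGTAA, the nuclear receptor half-site AGGTCA and the AP-1 site TGANTCA. The others were the cyclic AMP response element TGACGTCA, the GC box GGGCGG and the TATA box TATAAA. None of these motifs contains another.
Bdh1, first start, chr16:31422047-31422296: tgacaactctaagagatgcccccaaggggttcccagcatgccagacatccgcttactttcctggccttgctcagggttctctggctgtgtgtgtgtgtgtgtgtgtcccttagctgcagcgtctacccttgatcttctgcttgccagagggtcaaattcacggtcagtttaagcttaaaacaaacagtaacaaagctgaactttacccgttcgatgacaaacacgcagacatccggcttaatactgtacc
Bdh1, second start, chr16:31428503-31428752: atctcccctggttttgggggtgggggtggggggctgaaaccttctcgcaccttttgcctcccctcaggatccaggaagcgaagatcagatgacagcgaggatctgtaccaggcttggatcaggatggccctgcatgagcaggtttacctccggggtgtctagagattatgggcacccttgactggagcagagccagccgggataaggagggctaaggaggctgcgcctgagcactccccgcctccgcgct
Slc16a1, chr3:104638414-104638663: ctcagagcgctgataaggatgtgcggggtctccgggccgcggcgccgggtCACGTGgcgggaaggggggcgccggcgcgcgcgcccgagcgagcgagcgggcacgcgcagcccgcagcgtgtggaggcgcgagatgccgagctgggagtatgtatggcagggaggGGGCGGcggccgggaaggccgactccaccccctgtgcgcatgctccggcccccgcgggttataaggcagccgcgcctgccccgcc
No exact match to any of the 7 motifs was found in either Bdh1 window, nor in those of Oxct1 and Bdh2. Looser forms of these sites were not sought. The Slc16a1 window held 1 CACGTG, beginning 200 bases before the start, and 1 GGGCGG, beginning 85 bases before it. Of 32851 RefSeq promoter windows of the same length, 6.02% held CACGTG and 32.7% held GGGCGG. The windows differ in base composition: G and C made up 76.4% of the Slc16a1 window, which had 37 CpG pairs, against 49.6% and 60.8% with 7 and 9 CpG pairs for Bdh1. The medians of all windows were 52.4% and 6 CpG pairs. The deposited counts are per gene, so they do not tell which Bdh1 start was used.

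Bdh1 stood about 4-fold higher in old hearts, while the genes of the next steps, Oxct1 and Acat1, stood at 1.04 and 1.13 times their young levels. Slc16a1 and Bsg stood modestly higher. In FPKM (fragments per kilobase of gene, scaled to library size, as deposited), Bdh1 was at 16.1, 15.8 and 14.6 in young mice 1 to 3. It was at 65.4, 62.7 and 63.1 in old mice 1 to 3. Every old library thus held several times the level of every young library, and mice of a group were close to each other (coefficient of variation 5.02% in young and 2.27% in old hearts). The means were 15.5 ± 0.779 and 63.7 ± 1.45 FPKM (SD, n = 3). The log2 fold change, old over young, was 2.12 ± 0.08 (SE, from the edgeR fit over all genes), which is a 4.34-fold difference. Of the 12893 tested genes, 54 had a higher log2 fold change, and so had 6 of the 1122 genes at least as abundant as Bdh1. Ranked by FPKM among the 16964 genes with counts, Bdh1 stood at place 3393 in young and 1044 in old hearts. An antisense gene model, Gm15743, overlaps an exon of Bdh1 in GENCODE M21. It is not in the count table, and the strand setting of the counting is not given, so reads from it cannot be told apart from those of Bdh1.

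Bdh2 was barely expressed. It had 12, 7 and 7 counts in young and 12, 15 and 16 in old libraries, which is 0.613 ± 0.192 and 1.04 ± 0.143 FPKM. The exact 95% Poisson interval of 7 counts runs from 2.81 to 14.4, and that of 16 counts from 9.15 to 26, for counting error only. Scaled values of the groups did not overlap, but young 1 and old 1 had equal counts. The log2 fold change was 0.83 ± 0.35. Bdh2 reached 10 counts in 1 young and 3 old libraries, so it passed the filter on low counts mainly through the old group.

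Oxct1, the transferase gene, was among the most abundant transcripts of these hearts, at place 266 of 16964 by FPKM. It was at 315, 309 and 310 FPKM in young and 311, 311 and 296 in old mice, and the groups overlapped. Its log2 fold change was 0.05 ± 0.08, with a sign that turned with the scaling, to -0.03 by library size alone and -0.10 when scaled to 10 cardiomyocyte markers (0.01 without Actc1, the marker that differed most). Reads of BC037032, which overlaps it on the opposite strand and is not in the count table, cannot be told apart from those of Oxct1.

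Acat1, the thiolase gene, was at 172, 176 and 175 FPKM in young and 189, 187 and 184 in old mice. The groups did not overlap, but the difference was small, with means of 174 ± 1.88 and 187 ± 2.79 FPKM and a log2 fold change of 0.18 ± 0.08. Scaled to cardiomyocyte markers it was 0.03, and 0.13 with Actc1 left out of them.

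Slc16a1 was at 38.3, 33.3 and 41.4 FPKM in young and 45.5, 57.6 and 47.8 in old mice. Old 2 was the highest library and young 2 the lowest, and the groups did not overlap. The log2 fold change of 0.50 ± 0.11 corresponds to 1.41-fold. Bsg, the most abundant of the 6 genes, was at 981, 825 and 887 FPKM in young and 1008, 1144 and 1174 in old mice. Young 1 and old 1 lay close together, without overlap of the groups, and the log2 fold change was 0.39 ± 0.09, or 1.31-fold. Bsg stood at 24 ± 2.22 times Slc16a1 in young and 22.2 ± 2.35 times in old hearts on the FPKM scale, and the groups overlapped.

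**Figure D1:**
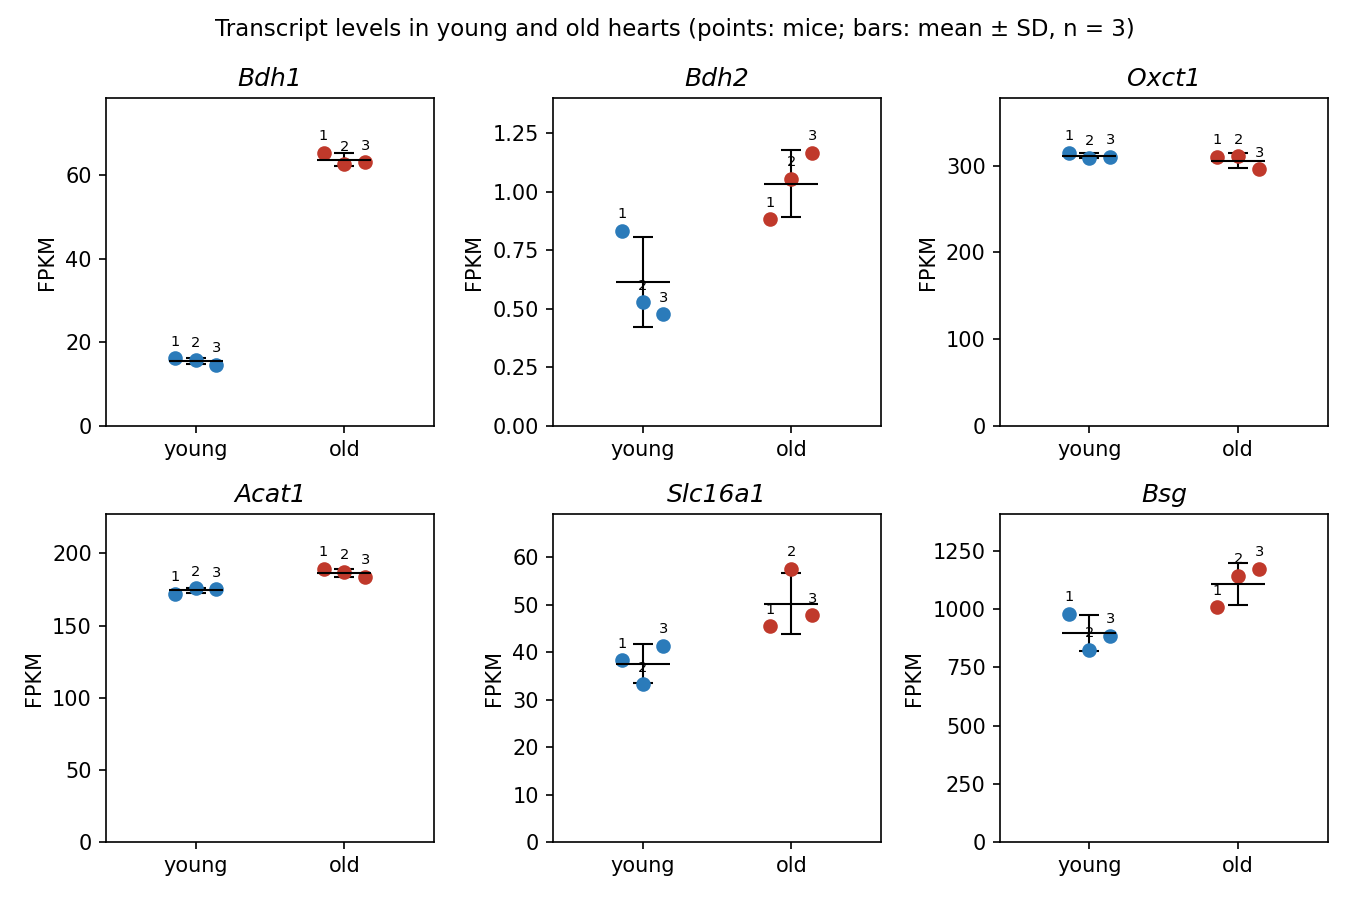
Deposited FPKM (vertical axis, from 0, own scale per gene) of the 6 genes in young and old hearts; points are mice, numbered as in the labels, and bars are mean ± SD (n = 3). Bdh1 lies at 14.6 to 16.1 in young and 62.7 to 65.4 in old mice, while the groups overlap for Oxct1.

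In the edgeR fit over all 12893 tested genes, 3 of the 6 genes were called at an adjusted p under 0.05, Bdh1, Slc16a1 and Bsg, all of them higher in old hearts, and 0 were called lower. Of all tested genes 22% were called, 11.4% higher and 10.6% lower. The share of calls that were higher was 51.7%, but 40.2% with upper-quartile factors, 32.7% by library size alone, 20.2% when scaled to cardiomyocyte markers (40.2% without Actc1) and 35.1% on FPKM values of genes with a mean of at least 1, or 38.1% without that filter. For 5 of the 6 genes (all but Oxct1) every old library had a higher scaled CPM than every young one, against 19.6% of all tested genes. The median log2 fold change of the 6 was 0.44, and that of all tested genes -0.01. Because the genes were chosen with this contrast known, nothing is read from these counts, nor from the calls in the refits that follow. Bdh1, Slc16a1 and Bsg kept their calls in edgeR when any 1 library was dropped. Scaled to cardiomyocyte markers, Bsg had a log2 fold change of 0.23 and was not called, but with Actc1 left out of the markers it had 0.335 and was called.

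The order of the 6 levels changed in 1 place. In young hearts it ran Bsg, Oxct1, Acat1, Slc16a1, Bdh1 and Bdh2 from highest to lowest FPKM. In old hearts Bdh1 (62.7 to 65.4 FPKM) stood above Slc16a1 (45.5 to 57.6 FPKM). No neighbours in either order overlapped in FPKM over the 3 libraries of a group. The change of place rests on the gene length that each FPKM is divided by. In CPM, which are not divided by length, Bdh1 (233.3 to 244.9) and Slc16a1 (206.7 to 267.4) overlapped in old hearts. Within a library, Oxct1 was 19.6, 19.6 and 21.2 times as high as Bdh1 in young mice and 4.76, 4.97 and 4.70 times as high in old mice on the FPKM scale. The transferase transcript was thus in excess over the dehydrogenase transcript in all 6 libraries, by a smaller factor in the old ones. The ratio of Acat1 to Bdh1 went the same way, with means of 11.3 ± 0.646 and 2.93 ± 0.0489 (SD, n = 3). Oxct1 per Acat1 differed far less, at 1.79 ± 0.0374 in young and 1.64 ± 0.0251 in old hearts, without overlap. These ratios do not depend on how libraries are scaled, but their size depends on the gene lengths used.

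**Figure D2:**
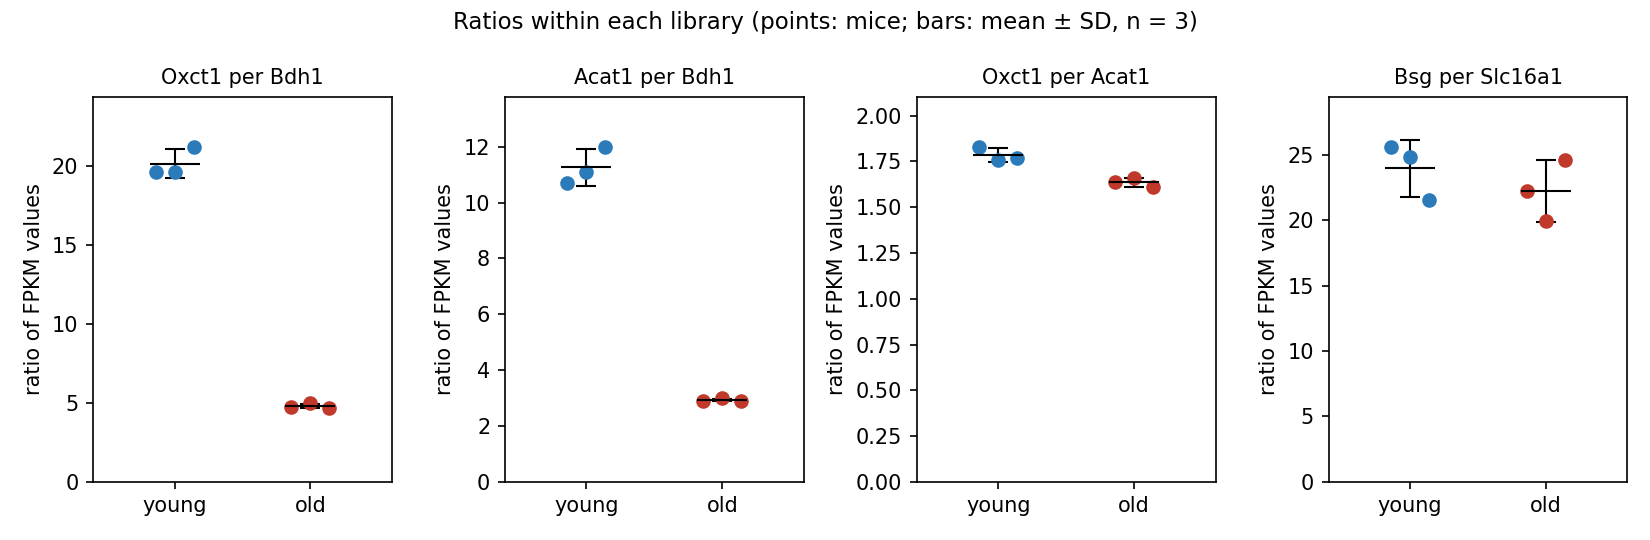
Ratios of deposited FPKM values within each library (vertical axes, from 0) for 4 gene pairs in young and old hearts; points are mice and bars are mean ± SD (n = 3). Oxct1 per Bdh1 lies at 19.6 to 21.2 in young and 4.70 to 4.97 in old mice, and Bsg per Slc16a1 overlaps between the groups.

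The other genes of the pathway were taken from whole lists of textbook pathway genes. These lists, too, were chosen with earlier results of these data known. Of 72 genes named in 6 lists, 70 were in the tables and 58 passed the filter on low counts. Of these, 8 rose and 2 fell in old hearts at an adjusted p under 0.05 over all genes, with a median log2 fold change of 0.08 against -0.01 for all tested genes. That is 10 of 58 called, beside 22% of all tested genes.

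Of the 7 tested genes of ketone body synthesis and of neighbouring thiolase steps, 2 rose and 0 fell (median 0.07). Acaa2, a mitochondrial thiolase of fatty acid oxidation, was at 610.5, 608.7 and 633.8 FPKM in young and 757.2, 739.5 and 876.3 in old mice. It rose by 0.44 ± 0.08 on the log2 scale (edgeR adjusted p = 0.00408). Hadha and Hadhb, the subunits of the trifunctional protein, had 0.03 ± 0.08 and 0.07 ± 0.08 and were not called. Oxct2a and Oxct2b were not analysed here.

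Hepatocytes make ketone bodies. The sums of 5 hepatocyte markers were 30.3, 1.49 and 1.01 FPKM in young and 4.39, 1.57 and 4.92 in old mice. The groups overlapped, and young 1 stood apart, with 506 counts of Alb. Of the 3 tested markers 0 rose and 1 fell, Cyp2e1. The part of hepatocyte RNA in the values given here was not tested.

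Among the other monocarboxylate transporters, 1 of 10 tested rose and 0 fell (median 0.15). Slc16a3, which encodes MCT4, the lactate exporter of glycolytic cells, was at 0.967, 0.796 and 0.881 FPKM in young and 3.53, 2.54 and 1.59 in old mice. The old mice spread widely, but all lay above the young ones. It rose by 1.61 ± 0.27 on the log2 scale (edgeR adjusted p = 0.00165). Even in old hearts its mean of 2.55 FPKM was far below the 50.3 ± 6.44 FPKM of Slc16a1. Slc16a7, which encodes MCT2, had -0.28 ± 0.15 and was not called.

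Of 7 genes (relatives of basigin, cyclophilin genes and the metalloproteinase gene Mmp14), 1 rose and 0 fell. Nptn, which encodes neuroplastin, a relative of basigin, had 43.4, 36.6 and 40.8 FPKM in young and 48.9, 46.6 and 51.4 in old mice. It rose by 0.36 ± 0.08 (edgeR adjusted p = 0.00972), but scaled to cardiomyocyte markers its log2 fold change was 0.21 and it was not called (0.32 and called with Actc1 left out of the markers). Emb, which encodes embigin, had -0.11 ± 0.19, and the cyclophilin gene Ppia, whose product binds basigin, had 0.04 ± 0.09.

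Of 14 genes of lactate and pyruvate handling, 2 rose and 1 fell. Mpc2, a subunit of the mitochondrial pyruvate carrier, rose by 0.46 ± 0.09 (edgeR adjusted p = 0.00559), from 439 to 571 FPKM. Pdhb, a subunit of pyruvate dehydrogenase, rose by 0.29 ± 0.08 (edgeR adjusted p = 0.0229), and Pcx, pyruvate carboxylase, fell by 0.31 ± 0.10 on the log2 scale (edgeR adjusted p = 0.0427). Pdhb was not called when young 1, young 3, old 1 or old 2 was dropped, nor Pcx when young 1, young 3, old 1 or old 3 was. Scaled to cardiomyocyte markers Pdhb had 0.14 (0.25 without Actc1), and by library size alone 0.21, and was not called in any of these fits. Pcx was not called by DESeq2 (adjusted p = 0.0638). With limma on log2(FPKM + 1) and no filter neither was called. The lactate dehydrogenase genes Ldha and Ldhb had 0.09 ± 0.08 each and were not called. Pdk4, a kinase that shuts pyruvate dehydrogenase during fasting, had 588, 493 and 675 CPM in young and 289, 277 and 583 in old mice. The groups overlapped through old 3, and it was not called (-0.61 ± 0.24, edgeR adjusted p = 0.0837; Pdk4 was singled out after its values were seen).

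The 4 listed receptors that sense lactate, 3-hydroxybutyrate or short-chain fatty acids did not pass the filter on low counts, so the main fit did not test them. Hcar1, the lactate receptor gene, had 10, 9 and 6 counts in young and 1, 1 and 1 in old libraries. The sum over young libraries, per total counts, was 8.17 times that over old ones, with an exact 95% interval of 2.49 to 42.3 that covers counting error only. With no filter on low counts edgeR called Hcar1 lower (adjusted p = 0.0129). Ffar2 went the other way, with 0, 0 and 1 counts in young and 3, 2 and 2 in old libraries. Without the filter Ffar2 was not called (edgeR adjusted p = 0.184). Hcar2, the receptor for 3-hydroxybutyrate, had 3 counts over the young and 4 over the old libraries. Ffar3 was at 0 in all 6, and the exact 95% Poisson interval of a count of 0 runs from 0 to 3.69.

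Of 20 tested genes among the PPAR factors, their partners and their usual targets in heart, 2 rose and 1 fell (median 0.06). Pparg, the fat cell nuclear receptor gene, rose by 0.72 ± 0.10 (edgeR adjusted p = 0.000506), from 5.85 to 9.16 FPKM. Fabp3, the fatty acid binding protein gene of heart muscle, rose by 0.55 ± 0.09 (edgeR adjusted p = 0.00133). Acot1, an acyl coenzyme A thioesterase gene, fell by 0.51 ± 0.12 on the log2 scale (edgeR adjusted p = 0.0137), which was not called when young 1 or old 1 was dropped. The log2 fold changes of the 20 ran from -0.97 to 0.94, below the value of Bdh1. Over all lists, the 2 genes that fell were 0 without young 1 or old 1, 1 without young 3, 3 without old 2 and 4 without old 3.

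**Figure D3:**
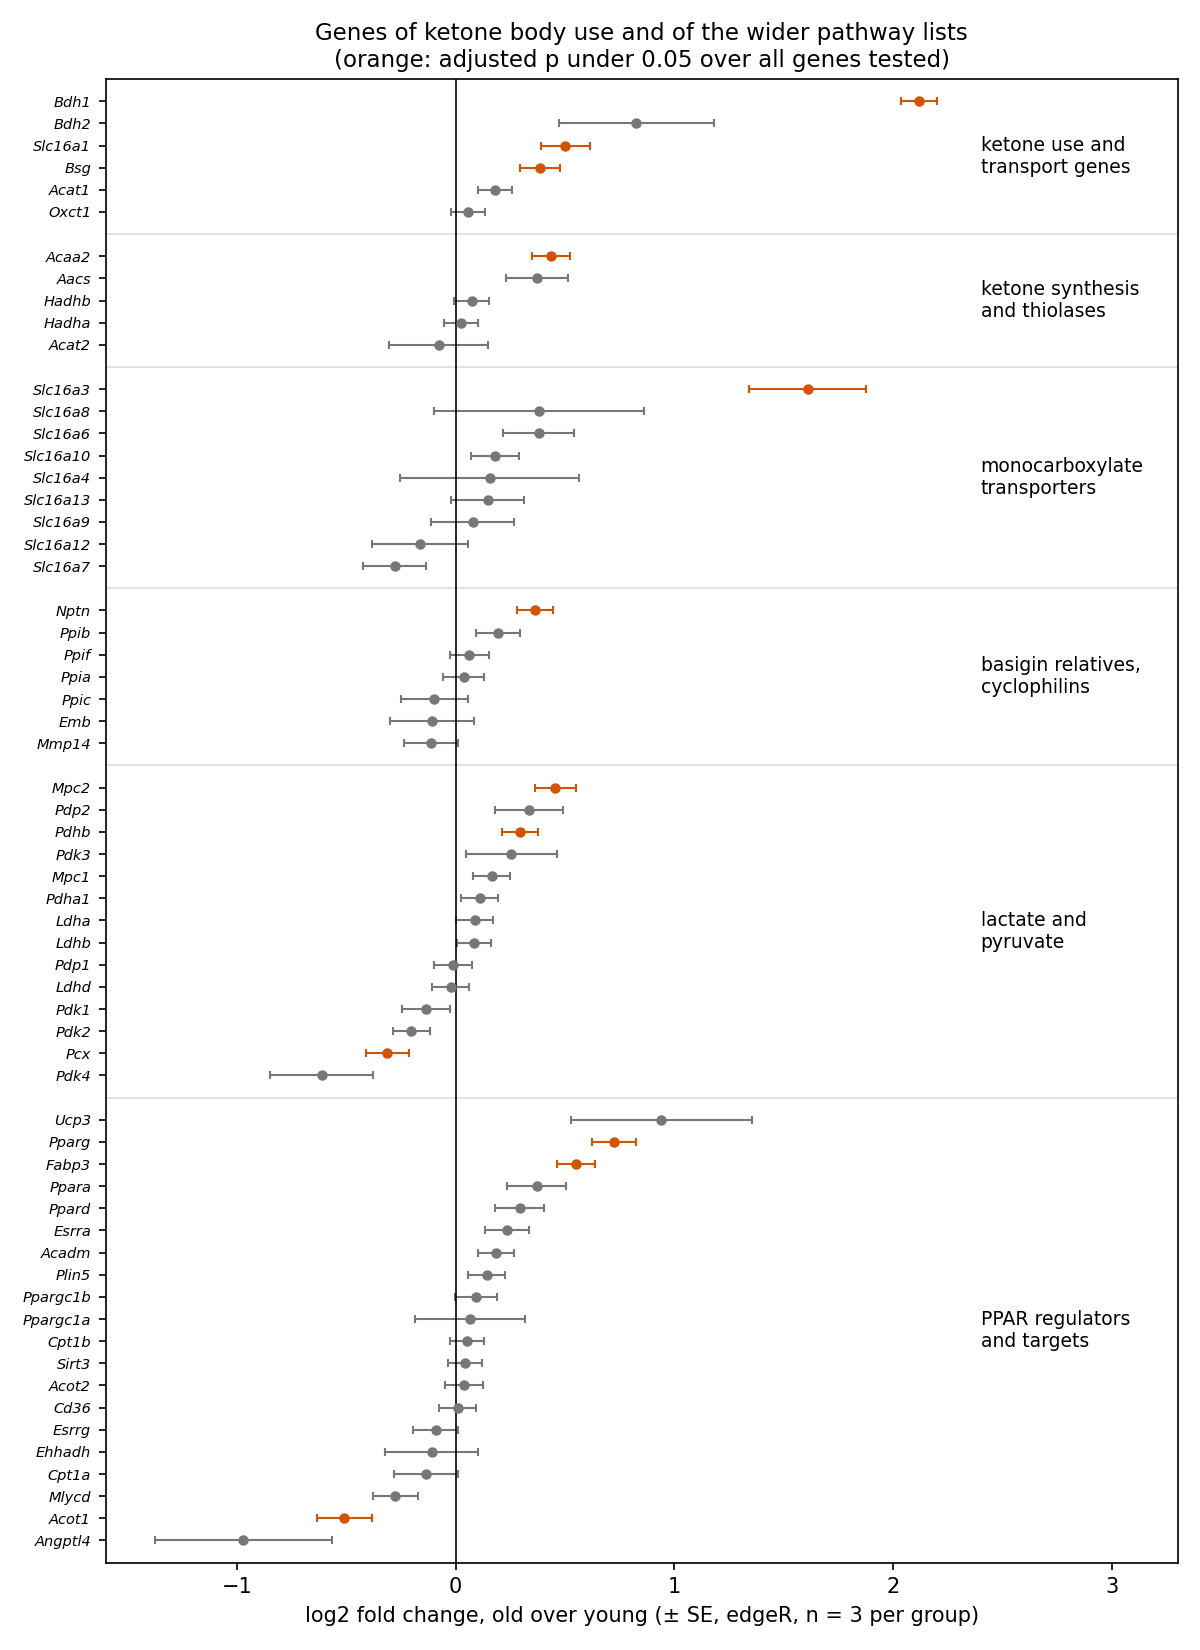
Log2 fold change, old over young (horizontal axis, ± SE from edgeR, n = 3 per group), of the 6 genes followed here and of tested genes from 5 pathway lists; orange marks an adjusted p under 0.05 over all genes tested. Bdh1 (2.12) and Slc16a3 (1.61) lie far to the right of the other genes shown. Some tested genes of these lists are not shown, so the figure does not rank the lists as a whole.

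Cell make-up and mitochondrial content were measured beside these genes, since in bulk tissue fewer cells of a type and less RNA per cell cannot be told apart. All 10 cardiomyocyte markers were detected, with sums of 36600 to 38600 FPKM in young and 43800 to 44800 in old hearts, without overlap. The gap was that of Actc1, the cardiac actin gene: sums of the other 9 were 30500 to 33100 and 31800 to 33400 FPKM and overlapped. Of the 10 markers 3 rose (Actc1, Tnni3 and Atp2a2) and 1 fell (Ttn). Scaled to all 10 markers, Bdh1 had a log2 fold change of 1.97 and Slc16a1 of 0.35, while the median of all genes went to -0.16. With Actc1 left out these were 2.07, 0.45 and -0.05. Of 9 mitochondrial genes outside the ketone pathway, such as citrate synthase and respiratory chain subunits, 1 rose, and their log2 fold changes ran from -0.03 to 0.24. Their sums were 11400 to 11600 FPKM in young and 12000 to 12300 in old hearts. Of 6 endothelial markers 0 rose and 2 fell (Tek and Kdr), with sums of 442 to 516 and 346 to 438 FPKM.

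Red cells also carry MCT1 and basigin. The sums of 6 red cell markers were 3610 to 26000 FPKM in young and 5010 to 10400 in old hearts, and of the 6 tested 0 rose and 1 fell, Hba-a2. Young 2, with the highest globin share (1.56% of counts, against 0.217% in young 1), had the lowest Slc16a1 and Bsg of all libraries. Old mice went the other way for Slc16a1. Old 2 had the highest globin share of that group (0.627%) and the highest Slc16a1 of all libraries (57.6 FPKM). Without young 2 the log2 fold change was 0.43 for Slc16a1 and 0.34 for Bsg. Of 6 macrophage markers 2 rose and 0 fell, and of 6 fibroblast markers 1 rose and 1 fell, with sums that overlapped between groups. White adipocyte markers had at most 8 counts in any library. The brown adipocyte marker Ucp1 was at 0 in all libraries, and Cidea, also expressed here without it, was called higher. Skeletal muscle markers summed to 1.89, 2.41 and 19.9 FPKM in young mice 1 to 3, so young 3 stood apart. In old hearts they summed to 3.53 to 5.04 FPKM. Of 3 tested atrial markers 0 rose and 1 fell, Nppa, which made up nearly all of the atrial sum (394 to 496 FPKM in young and 58.6 to 126 in old hearts). The other 4 atrial markers summed to 1.53 to 1.88 and 0.637 to 2.54 FPKM, and overlapped. The part of Nppa-expressing cells, red cells and endothelium in the values of the 6 genes was not tested.

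Genes with a profile like that of Bdh1 over the 6 libraries were sought by the root mean square difference of log2(CPM + 0.5), each gene taken relative to its young mean. Of 11799 genes compared, the nearest were Amy1, a salivary-type amylase gene (difference 0.15), Acsm5, a mitochondrial acyl coenzyme A synthetase gene (0.16), Coq10b, a coenzyme Q binding protein gene (0.23), Fosl2, an AP-1 factor gene (0.23), and Sh3gl2, an endophilin gene (0.23). The same 5 were nearest under each of 3 other scalings (RLE, upper-quartile and library size alone). All 5 were chosen for a difference like that of Bdh1, so their fold changes of 1.87 to 2.29 on the log2 scale carry no test. Acsm5 was at 4.14, 3.69 and 4.49 CPM in young and 18.4, 23.1 and 19.1 in old mice. Coq10b was at 14.8, 23.4 and 19.0 CPM in young and 105, 80.3 and 77.5 in old mice, and so spread more within each group than Bdh1, at 56.4, 57.3 and 51.7 CPM in young and 245, 240 and 233 in old mice. How reads were placed between Amy1 and its near copies is not known.

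**Figure D4:**
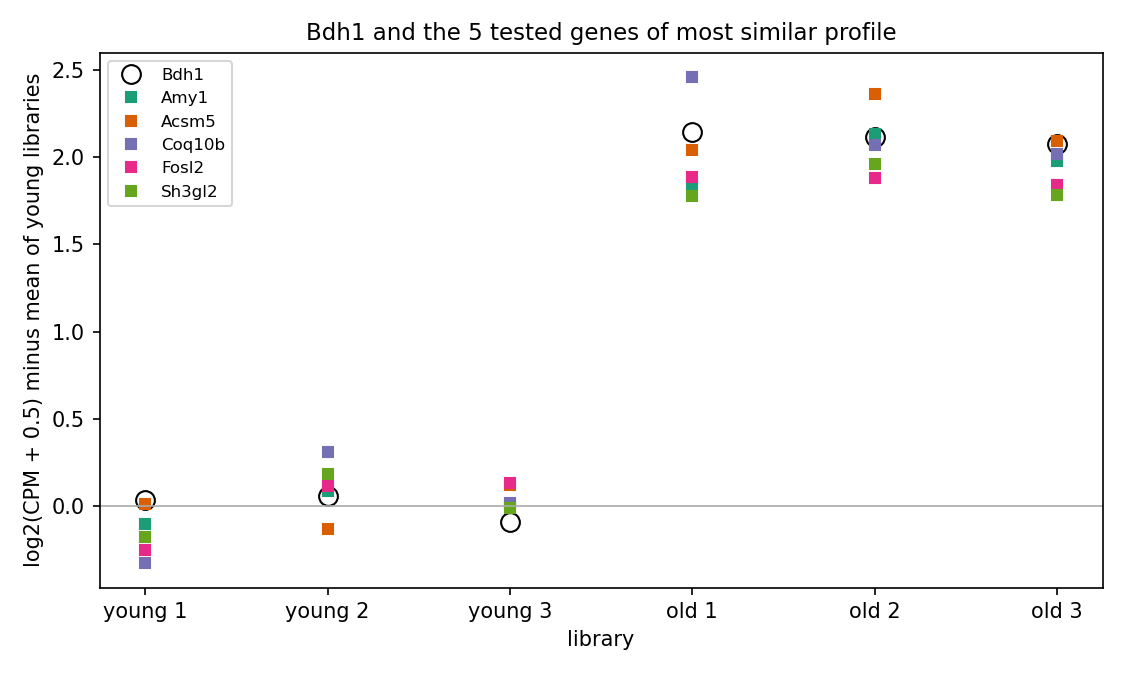
Log2(CPM + 0.5) minus the mean of the young libraries (vertical axis) in each of the 6 libraries (horizontal axis) for Bdh1 (open circles) and the 5 genes of most similar profile (squares). Bdh1 lies between -0.09 and 0.06 in young and between 2.07 and 2.14 in old libraries.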

How the data were processed

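Gene counts (whole numbers per gene and library) and FPKM values were deposited by the authors for 3 young and 3 old mouse hearts. Per the labels' protocols, libraries were made with a stranded kit for polyadenylated RNA. The submitters' processing notes name GRCm39, and as tools DESeq, HTSeq, StringTie, Cufflinks, HISAT2, Bowtie2 and Trimmomatic. Their roles, versions and the strand setting of the counting: not given in the sources used here. The deposited FPKM equal counts divided by 1 gene length and the library total (16964 of 16964 genes with counts, within 1e-06).

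The test of the deposited counts was that of edgeR 4.0.16 under R 4.3.3 (quasi-likelihood F test, filterByExpr, TMM, no covariate, all 6 libraries), with Benjamini-Hochberg adjustment over 12893 genes and a threshold of 0.05. SEs come from the fold change and F. The test was checked on simulated counts. CPM are TMM scaled.

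The members and gene lists were chosen with earlier results of these data known. Named by rule were the members, up to 5 called genes per list by smallest p (else the 2 of highest FPKM, of a list with none called), and for members changed at least 2-fold (log2 of 1) the 5 nearest profiles. Other genes are named for background or a list's range, chosen after their values were seen. Alternatives were other scalings (that to cardiomyocyte markers without Actc1 was chosen after seeing the data), filters, a replicate block, each library left out, DESeq2 1.42.0, limma-voom (limma 3.58.1) and limma on log2 of FPKM with pseudocounts of 1 and 0.1. With 11295280 to 12514005 counts per library, precision is limited by the 3 mice per group except for genes of few counts. Some genes counted in the lists are not reported by name here.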

Additional observations from a re-analysis of the deposited data

How the results depend on the processing

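The 6 genes were chosen with this contrast known, and every alternative reuses the same libraries. Calls that were kept therefore describe the processing only and add no support. Bdh1 was called higher under every alternative run, with log2 fold changes from 1.97 to 2.15. Slc16a1 and Bsg kept their calls when any 1 library was dropped (0.38 to 0.58 and 0.34 to 0.46). With limma on log2(FPKM + 1) and no filter, 1 of the 6 genes was called, with 0.41 for Slc16a1 and 0.30 for Bsg, and 5 pathway genes rose. Scaled to cardiomyocyte markers, Bsg had 0.23 and was not called. With Actc1 left out of these markers, an alternative chosen after seeing the data, 3 of the 6 genes were called, Bsg among them (0.335), and 7 pathway genes rose and 3 fell. Oxct1, Acat1 and Bdh2 were called under no alternative. The 2 pathway genes that fell became 4 with upper-quartile factors, by library size alone, with no filter and on log2 FPKM of genes with a mean of at least 1 (pseudocount 1 or 0.1), 7 when scaled to cardiomyocyte markers and 1 with DESeq2. With a library left out they ranged from 0 to 4, and the pathway genes that rose from 7 to 10, against 8. All called genes numbered 2835, and 1552 to 3041 with a library left out (1557 without young 1, 1552 without young 3). The cause of these shifts was not tested. A fit with a library left out also has fewer samples.

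No sign of pairing by replicate number was seen: deviations of same-numbered libraries correlated at 0.08, 0.07 and 0.01 over 12019 genes. Different-numbered libraries correlated at -0.159 to 0.084, and not every library correlated best with its own number. With 3 libraries per group, these values do not settle whether the mice were paired. With the replicate block 2734 genes were called, among them 3 of the 6 genes, as without it. Bdh1 had 2.12 with the block, Slc16a1 0.495 and Bsg 0.39, and Pcx was not called (edgeR adjusted p = 0.0543). Depth limits Bdh2, with 7 to 16 counts per library, and the receptor genes.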
